A study of Homo sapiens with 6 samples.

Results

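The 10 genes described here encode enzymes that make serine, asparagine and cysteine and that carry one-carbon units on folate. They are PHGDH, PSAT1 and PSPH of serine synthesis, SHMT1, SHMT2, MTHFD2, MTHFD1L and ALDH1L2 of serine-driven folate metabolism, ASNS of asparagine synthesis, and CTH of cysteine synthesis. They were chosen by gene symbol, with earlier results of these data known, and all 10 were found among the 26255 genes that each library lists. Messenger RNA was measured in HT29, an established human colorectal adenocarcinoma cell line, after 24 h with YM155, a small molecule known for lowering survivin expression, or with its solvent DMSO as the control. Both arms consist of 3 libraries of the unmodified line, and the libraries whose treatment label is YM155 carry titles spelled YM115. The dose is not given in the sources used here. Nothing in the labels states that replicates were separate cultures. The p-values therefore reflect the spread among these libraries alone, and that spread may be technical.

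Cells make serine from the glycolytic intermediate 3-phosphoglycerate in a short route of oxidation, transamination and dephosphorylation. Serine hydroxymethyltransferases then pass the side-chain carbon of serine to tetrahydrofolate and leave glycine. In mitochondria that carbon is oxidised and released as formate, which the cytosol uses to build purines and thymidylate. Asparagine synthetase moves the amide nitrogen of glutamine onto aspartate, and cystathionine gamma-lyase releases cysteine at the end of transsulfuration. Many of these genes are known targets of ATF4, the transcription factor of the amino acid and integrated stress responses.

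The deposited values are FPKM (a fragment count corrected for transcript length and library size). Tests covered the 12035 genes that reached 1 FPKM in 3 or more of the 6 libraries. The steps between low values put the depth at about 24.4 to 27.3 M effective reads per DMSO library and 15.3 to 17.9 M per YM155 library, so scarce transcripts were measured less precisely with YM155. With 84.7% of all tested genes called at an adjusted p under 0.05 by limma, a call by itself sets no gene apart. The split of calls depended on scaling, with 51.5% of calls higher with YM155 on the deposited scale, 45.5% after quantile normalization, 37.3% with libraries set to 1 common sum and 36.4% with upper-quartile scaling. Across all genes the median log2 fold change shifted by -0.11 with quantile normalization, by -0.29 with the common sum and by -0.31 with the upper quartile. The sum over all genes was 538478 to 563296 FPKM in the DMSO and 678699 to 696067 FPKM in the YM155 libraries, so summed levels below are not on a common total. The epithelial identity of the line was seen in KRT8 and KRT18, at 1962 and 1706 FPKM with DMSO, and in EPCAM, at 276 FPKM, whereas CDX1 and GPA33 stayed under 1 FPKM in every library and CDH17 did so with DMSO. Of the 8 epithelial markers tested, 6 were higher with YM155, KRT20 the most (6.71-fold), and VIL1 and CDX2 were lower by limma. Among all tested genes 43.6% were higher and 41.0% lower. CDX2 was under 1 FPKM in every YM155 library, so it passed the filter through the DMSO libraries. CDH17 passed it through the YM155 libraries. The summed level of the 10 epithelial markers was 4110 to 4304 FPKM in the DMSO and 7272 to 7853 FPKM in the YM155 libraries, and its part in the results below was not tested. Of 10 markers of blood, endothelial and stromal cells, 8 were under 1 FPKM in every library, and CD3E, COL1A2 and PDGFRB were listed at 0 in all YM155 libraries. The exceptions were CD68, which is also a lysosomal membrane protein (mean 4.85 FPKM in DMSO, 82.9 FPKM in YM155), and CD79A (0.399 and 4.85 FPKM). The summed level of the 10 markers went from 4.66 to 6.58 FPKM in the DMSO libraries to 83.7 to 92.7 FPKM in the YM155 libraries, and its part in the results below was not tested. In bulk RNA, a change in the number of cells of a kind and a change in RNA per cell cannot be told apart.

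Of the 9 enzymes that could be tested, 7 were higher and 2 lower with YM155 by limma. Among all tested genes 43.6% were higher and 41.0% lower. A log2 fold change of at least 1 was seen for 6 of the 9 (PHGDH, PSAT1, MTHFD2, MTHFD1L, ASNS and CTH), against 15.9% of tested genes. SHMT1 alone of the 9 was at -1 or lower, against 11.8%. The libraries of the treatments did not overlap for any of the 9, which held for 85.9% of tested genes. The median log2 fold change of the 9 was 2.01, and that of all tested genes was 0.024. Since the enzymes were chosen with earlier results of these data known, these counts and medians are descriptions only. The tenth enzyme, ALDH1L2, was too scarce to test.

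**Figure D1:**
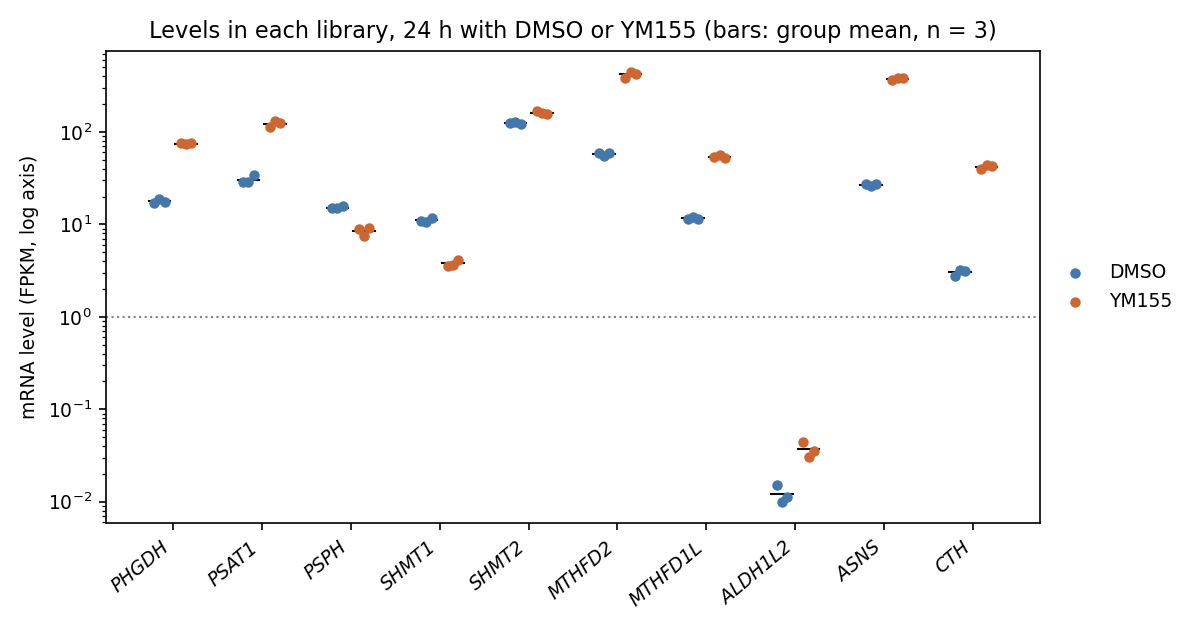
Level of each enzyme in each library (vertical log axis, FPKM); points are libraries, bars are group means (n = 3), blue is DMSO and orange is YM155, and the dotted line is at 1 FPKM. PSPH and SHMT1 are lower with YM155, ALDH1L2 lies far below 1 FPKM in all libraries, and the other 7 enzymes are higher with YM155.

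The 3 enzymes of serine synthesis did not move together: the first and second rose about 4-fold and the last fell. PHGDH, the dehydrogenase that commits 3-phosphoglycerate to serine, was at 17.2, 18.7 and 17.5 FPKM in the DMSO libraries and at 76.2, 73.4 and 75.1 FPKM in the YM155 libraries. All 3 YM155 libraries lay above all DMSO libraries, and the spread within each treatment was small. The mean went from 17.8 ± 0.763 to 74.9 ± 1.43 FPKM (SD, n = 3), a 4.21-fold rise (log2 fold change 2.01, SE 0.047, adjusted p = 1.4e-09 by limma). PSAT1, the aminotransferase that makes phosphoserine with glutamate as the nitrogen donor, measured 29.1, 28.7 and 33.9 FPKM in the DMSO libraries against 113, 132 and 124 FPKM in the YM155 libraries. It was the most variable of the strongly raised enzymes, with a coefficient of variation of 9.47% with DMSO and 7.64% with YM155, and its groups were still far apart. The rise was 4.03-fold (log2 fold change 1.98, SE 0.076, adjusted p = 2.6e-08 by limma).

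PSPH, the phosphatase that releases free serine, measured 15.1, 14.9 and 15.7 FPKM in the DMSO libraries against 8.90, 7.52 and 9.14 FPKM in the YM155 libraries. Every YM155 library lay below every DMSO library. PSPH fell 1.79-fold (log2 fold change -0.77, SE 0.074, adjusted p = 8.7e-06 by limma). The PHGDH to PSPH ratio within a library, a quantity chosen after the values were seen and not tested, was 1.14, 1.25 and 1.12 with DMSO and 8.56, 9.76 and 8.22 with YM155. In contrast the PSAT1 to PHGDH ratio had overlapping ranges, 1.54 to 1.93 with DMSO and 1.49 to 1.80 with YM155. PSPH has a pseudogene, PSPHP1, and PSAT1 has 4 named pseudogenes in GENCODE. Reads shared with such copies make both levels uncertain.

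The serine hydroxymethyltransferases moved in different directions. SHMT1, the cytosolic enzyme, measured 10.8, 10.8 and 11.8 FPKM in the DMSO libraries against 3.57, 3.64 and 4.13 FPKM in the YM155 libraries. The groups were well separated, and the fall was 2.93-fold (log2 fold change -1.34, SE 0.071, adjusted p = 1.9e-07 by limma). Only 5.12% of tested genes had a lower log2 fold change than SHMT1. SHMT1 overlaps the gene SMCR8 on the opposite strand, which was higher with YM155 (11.3 FPKM) than with DMSO (4.78 FPKM). Whether strand was used in the quantification is not given in the sources used here.

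SHMT2, the mitochondrial enzyme, measured 124, 127 and 122 FPKM in the DMSO libraries against 168, 159 and 158 FPKM in the YM155 libraries. The ranges did not overlap, and the mean rose 1.30-fold, with a log2 fold change of 0.38 (SE 0.042; adjusted p = 2.6e-05 by limma). This was the smallest change among the 9 tested enzymes. It depended on scaling: the log2 fold change was 0.029 after upper-quartile scaling (adjusted p = 0.56), 0.053 after common-sum scaling (adjusted p = 0.21) and -0.07 after quantile normalization (adjusted p = 0.11), all by limma. Relative to the median of all genes it was 0.35 on the deposited scale, 0.31 with either of the first 2 scalings and 0.019 with quantile normalization. The same scalings left the direction and the call of the other 8 tested enzymes in place. SHMT2 overlaps the gene NDUFA4L2 on the opposite strand, which was also higher with YM155 (39.8 FPKM) than with DMSO (30.2 FPKM). Whether reads of this neighbour entered the SHMT2 level was not tested.

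Of the 3 mitochondrial folate enzymes after SHMT2, both that were measurable rose. MTHFD2, the mitochondrial dehydrogenase and cyclohydrolase that oxidises the one-carbon unit, measured 58.8, 55.0 and 59.9 FPKM in the DMSO libraries against 388, 443 and 426 FPKM in the YM155 libraries. No DMSO library came near the YM155 range. The rise was 7.24-fold (log2 fold change 2.83, SE 0.058, adjusted p = 7.1e-10 by limma) and ranked 129th from the top among 12035 tested genes. MTHFD2 has 7 named pseudogenes in GENCODE. The 1 pseudogene that the tables list, MTHFD2P1, was not above 0 in any library. MTHFD1L, the mitochondrial synthetase that releases formate, measured 11.4, 12.2 and 11.5 FPKM in the DMSO libraries against 53.4, 55.8 and 52.3 FPKM in the YM155 libraries. Its 3 YM155 libraries lay close together and far above the DMSO libraries, a 4.61-fold rise (log2 fold change 2.11, SE 0.050, adjusted p = 1.4e-09 by limma).

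ALDH1L2, the mitochondrial dehydrogenase that burns the formyl group to carbon dioxide while making NADPH, measured 0.0151, 0.01001 and 0.0112 FPKM in the DMSO libraries against 0.0448, 0.0306 and 0.0352 FPKM in the YM155 libraries. On the depth estimate above and the longest GENCODE transcript (7547 bases), these values correspond to about 3, 2 and 2 reads with DMSO and 5, 4 and 4 reads with YM155. The YM155 values lay above all DMSO values, but they rest on 7 and 13 reads in all, so no test was made and no fold change is given. The cytosolic counterpart ALDH1L1 was also scarce, between 0.0646 and 0.271 FPKM, and its groups overlapped. ALDH1L2 overlaps the gene C12orf45 on the opposite strand, which averaged 22.8 FPKM with DMSO and 28.8 FPKM with YM155.

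ASNS and CTH had the largest changes of the set, each rising about 14-fold. ASNS was at 27.3, 26.3 and 27.1 FPKM in the DMSO libraries and at 364, 384 and 380.4 FPKM in the YM155 libraries. The coefficient of variation was 2.00% among DMSO and 2.89% among YM155 libraries, while the treatments differed 13.97-fold (log2 fold change 3.76, SE 0.041, adjusted p = 8.4e-11 by limma). It ranked 39th of 12035 tested genes. CTH, the last enzyme of transsulfuration, began far lower, at 2.78, 3.19 and 3.10 FPKM with DMSO, and reached 40.1, 44.0 and 42.4 FPKM with YM155. Its ranges were also far apart. The ratio of means was 13.9 for CTH, close to that of ASNS, and the log2 fold change was 3.42 (SE 0.063, adjusted p = 4.2e-10 by limma), rank 63 of the tested genes. The smaller log2 value for a like ratio comes from the 1 FPKM added before the logarithm, and with 0.1 added instead the log2 fold changes were 3.80 for ASNS and 3.76 for CTH. With quantile normalization the order of these 2 turned, with 3.33 for ASNS and 3.37 for CTH. CBS, the enzyme that feeds CTH with cystathionine, was nearly absent, at 0.0618 FPKM or less in every library and listed at 0 in DMSO replicate 3 and YM155 replicate 2.

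**Figure D2:**
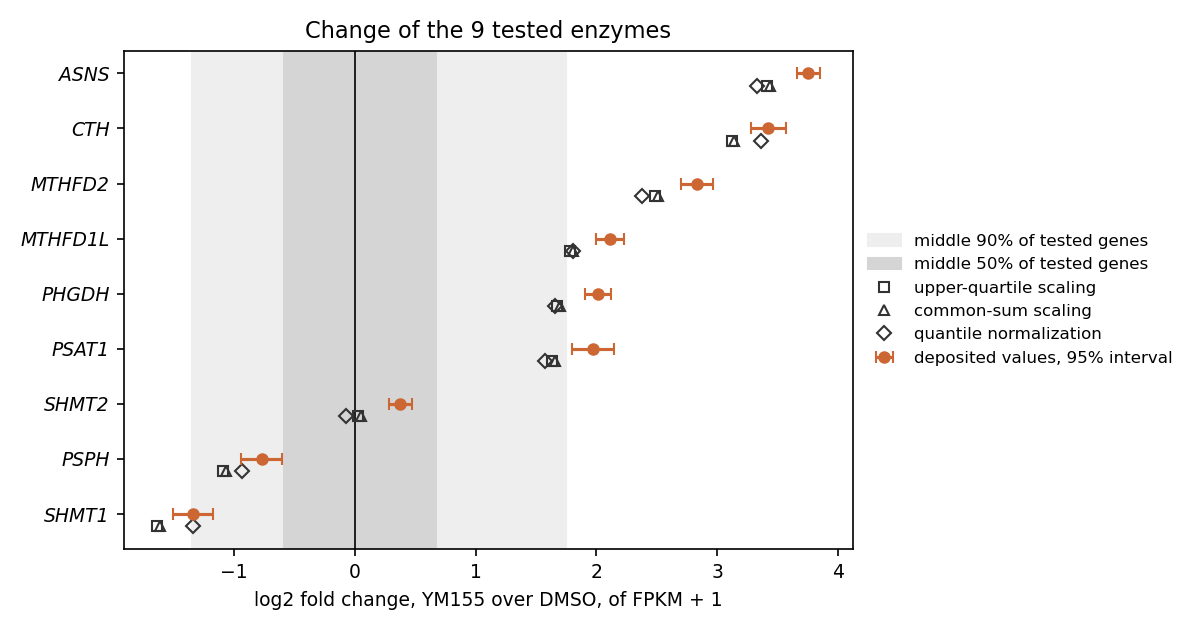
Log2 fold change of FPKM + 1 for the 9 tested enzymes (horizontal axis), with 95% intervals from limma (orange) and the values after 3 other scalings (open symbols); grey bands hold the middle 50% and 90% of all tested genes. ASNS, CTH, MTHFD2, MTHFD1L, PHGDH and PSAT1 lie right of the 90% band, which ends at 1.75, on the deposited scale, and SHMT2 sits at 0 or near it after the other scalings.

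Promoter sequences are shown because ATF4 acts through a known DNA element, the C/EBP-ATF response element, whose core TGATGNAA can be looked for in the genes that rose and fell. RefSeq windows (assembly GRCh38.p14) of 250 bases before to 50 after a start site were at hand for 7 of the 10 genes, in 11 windows. PSPH, SHMT2 and ALDH1L2 had none, so SHMT1 is the only enzyme that fell and has a sequence here. The files themselves are of build hg19, and no coordinate of theirs is used. The core was searched on both strands together with CACGTG, the E-box bound by MYC and related factors. The sequences below run 5′ to 3′ on the strand of the gene, with matches in capitals. They are the windows of ASNS (chr7:97872359-97872658, minus strand) and MTHFD1L (chr6:150866236-150866535, plus strand), which hold the core, and those of CTH (chr1:70411018-70411317, plus strand), which rose without a match, and SHMT1 (chr17:18363501-18363800, minus strand), which fell.
ASNS: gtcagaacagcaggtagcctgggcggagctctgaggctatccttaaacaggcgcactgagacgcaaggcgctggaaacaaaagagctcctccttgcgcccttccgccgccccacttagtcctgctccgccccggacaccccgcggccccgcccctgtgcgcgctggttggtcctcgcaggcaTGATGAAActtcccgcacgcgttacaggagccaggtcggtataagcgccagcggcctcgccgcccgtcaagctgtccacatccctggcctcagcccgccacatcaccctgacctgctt
MTHFD1L: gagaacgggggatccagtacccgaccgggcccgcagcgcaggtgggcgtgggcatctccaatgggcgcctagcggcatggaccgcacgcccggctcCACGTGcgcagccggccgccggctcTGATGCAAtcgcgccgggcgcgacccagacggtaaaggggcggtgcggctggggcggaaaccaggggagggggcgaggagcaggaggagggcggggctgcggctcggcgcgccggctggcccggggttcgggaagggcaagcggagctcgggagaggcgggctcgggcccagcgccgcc
CTH: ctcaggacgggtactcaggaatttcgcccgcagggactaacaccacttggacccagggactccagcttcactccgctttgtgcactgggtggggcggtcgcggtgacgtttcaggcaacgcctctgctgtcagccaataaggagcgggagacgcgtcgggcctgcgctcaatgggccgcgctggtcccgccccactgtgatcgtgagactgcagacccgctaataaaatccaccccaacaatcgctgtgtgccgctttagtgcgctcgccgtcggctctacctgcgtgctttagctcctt
SHMT1: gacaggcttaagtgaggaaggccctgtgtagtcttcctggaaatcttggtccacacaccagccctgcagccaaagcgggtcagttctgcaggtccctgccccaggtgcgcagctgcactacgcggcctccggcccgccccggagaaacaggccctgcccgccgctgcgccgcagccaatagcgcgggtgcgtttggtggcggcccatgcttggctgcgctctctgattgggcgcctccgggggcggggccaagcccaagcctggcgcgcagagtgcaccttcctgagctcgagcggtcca
In ASNS the match TGATGAAA begins 68 bases before the start site, in a stretch where a nutrient-sensing element of this gene has been described. In MTHFD1L the match TGATGCAA begins 129 bases before the start site and the E-box 154 bases before it, and both recur in 2 overlapping windows of other start sites of the gene. In the window that starts at chr6:150866083 the core begins 24 bases after the start site. The other ASNS window and the MTHFD1L window that starts at chr6:151006758 hold neither match. The core was thus found for 2 of 7 genes (4 of 11 windows) and the E-box for 1 of 7 (3 of 11 windows), where 3 of the windows in each count are the overlapping ones of MTHFD1L. Of all 35116 windows, 3.62% hold the core and 7.26% the E-box, and among windows of tested genes these shares were 1.94% and 9.45%. These shares are per window and cannot be set against the counts per gene, since ASNS and MTHFD1L each have more than 1 window. The windows of CTH, MTHFD2, PHGDH, PSAT1 and SHMT1 hold neither. A match is a description of letters in this window, and binding was not measured.

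The order of the enzymes by level, which FPKM allows since it is per length, changed between the treatments. With DMSO, SHMT2 was the most abundant at 124 FPKM, followed by MTHFD2 (57.9), PSAT1 (30.6), ASNS (26.9), PHGDH (17.8), PSPH (15.2), MTHFD1L (11.7), SHMT1 (11.1), CTH (3.02) and ALDH1L2 (0.0121). Only MTHFD1L and SHMT1 had overlapping ranges as neighbours in that order. With YM155, MTHFD2 led at 419 FPKM, followed by ASNS (376), SHMT2 (162), PSAT1 (123), PHGDH (74.9), MTHFD1L (53.9), CTH (42.1), PSPH (8.52), SHMT1 (3.78) and ALDH1L2 (0.0369), with no overlap between neighbours. The summed level of the 10 enzymes was 297, 297 and 302 FPKM with DMSO and 1216, 1303 and 1271 FPKM with YM155. The sum over all genes was also higher with YM155, at 678699 to 696067 FPKM against 538478 to 563296 FPKM with DMSO. SHMT2 made up 40.3% to 42.8% of the sum of the 10 enzymes in the DMSO libraries and 12.2% to 13.9% in the YM155 libraries. The share of MTHFD2 went from between 18.5% and 19.8% to between 31.9% and 34.0%, and that of ASNS from between 8.86% and 9.21% to between 29.5% and 29.9%.

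Ratios between enzymes were compared within each library, where scaling cancels apart from the 0.1 FPKM added to both values. The pairs were enzymes of the same step, except CTH and CBS, which act in succession. For 6 pairs an exact two-sided permutation test over the 6 libraries was used, whose smallest possible p is 0.10. The SHMT2 to SHMT1 ratio (mitochondrial over cytosolic) was 11.5, 11.7 and 10.3 with DMSO and 45.9, 42.6 and 37.3 with YM155. The groups did not overlap, and the ratio was 3.75 times higher (exact permutation p = 0.1, adjusted p = 0.12 over the 6 pairs). MTHFD1, the cytosolic enzyme that carries out the steps of MTHFD2 and MTHFD1L in 1 protein, measured 33.8, 32.5 and 32.6 FPKM in the DMSO libraries against 20.2, 19.6 and 20.4 FPKM in the YM155 libraries. It fell 1.64-fold (log2 fold change -0.69, SE 0.045, adjusted p = 7e-07 by limma), opposite to both mitochondrial enzymes.

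The MTHFD2 to MTHFD1 ratio was 1.74, 1.69 and 1.84 with DMSO and 19.1, 22.6 and 20.8 with YM155, 11.8 times higher. The MTHFD1L to MTHFD1 ratio was below 1 with DMSO (0.339, 0.376 and 0.354) and above 1 with YM155 (2.63, 2.84 and 2.55), 7.51 times higher. MTHFD2L, the second mitochondrial dehydrogenase, averaged 1.11 ± 0.222 FPKM in DMSO libraries and 0.997 ± 0.239 FPKM in YM155 libraries (SD, n = 3), with overlapping groups, and did not pass (adjusted p = 0.52 by limma). The MTHFD2 to MTHFD2L ratio was 40.4 to 53.4 with DMSO and 337 to 506 with YM155. For these 3 pairs the groups did not overlap either, and each had an exact permutation p = 0.1, the smallest this design allows (adjusted p = 0.12). The remaining pairs, CTH with CBS and ALDH1L2 with ALDH1L1, held a gene too scarce for a ratio to be read (exact permutation p = 0.1 and 0.9, adjusted p = 0.12 and 0.9).

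**Figure D3:**
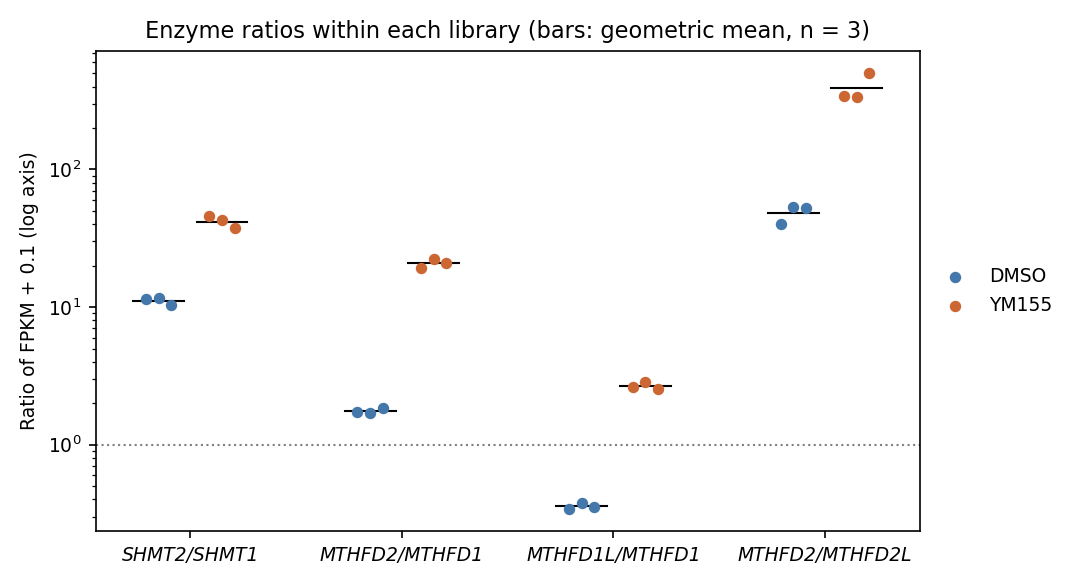
Ratio of FPKM + 0.1 between enzymes of the same step within each library (vertical log axis); points are libraries, bars are geometric means (n = 3), and the dotted line marks equal levels. All 4 ratios are higher with YM155 in all 3 libraries, and MTHFD1L over MTHFD1 crosses from below to above 1.

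Neighbouring genes of these pathways were taken from 10 lists with 90 genes in all, of which 78 could be tested. The lists were written with earlier results of these data known, so their counts are descriptions only. By limma 37 were higher, 28 lower and 13 did not pass, shares near those of all tested genes. With upper-quartile scaling 30 were higher and 42 lower, and of all 12035 tested genes 3767 were higher and 6584 lower. The counts of single lists with that scaling, given below, also carry this shift of all genes. The lists differed among themselves, and none was given a test of its own. Of 15 tested folate genes outside the 10 enzymes, 2 were higher and 10 lower, with a median log2 fold change of -0.69. The mitochondrial folate carrier gene SLC25A32 had the largest log2 fold change (0.72; 1.71-fold, from 12.3 ± 1.196 to 21.0 ± 2.42 FPKM). TYMS, which makes thymidylate and was named after its values were seen, fell 3.17-fold. Upper-quartile scaling left 1 folate gene higher and 12 lower, and a mean of at least 5 FPKM left 2 higher and 6 lower. At that mean 8575 genes were tested in all, of which 4419 were higher and 2922 lower. FOLR1, also named after its values were seen, was among the 10 that were lower. It averaged 2.35 FPKM with DMSO and 0.328 FPKM with YM155, so it passed the filter through the DMSO libraries.

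The glycine cleavage system takes glycine apart in mitochondria. GLDC, its decarboxylase, was under 0.05 FPKM in every library. AMT fell from 2.997 ± 0.589 to 0.502 ± 0.156 FPKM and GCSH from 30.1 ± 2.96 to 14.95 ± 1.66 FPKM (log2 fold changes -1.41 and -0.97). AMT was under 1 FPKM in every YM155 library, so it passed the filter through the DMSO libraries. DLD, shared with other dehydrogenase complexes, did not pass (20.4 ± 0.770 FPKM in DMSO, 18.7 ± 0.836 FPKM in YM155 libraries, adjusted p = 0.058 by limma). DLD was called lower with the 3 scalings (log2 fold changes -0.46, -0.43 and -0.41), with a mean of at least 5 FPKM (adjusted p = 0.048), without DMSO replicate 2 (adjusted p = 0.044) and without YM155 replicate 2 (adjusted p = 0.033), all by limma. Of 6 genes of purine synthesis, which consumes formyl folate, 2 were higher (1 with upper-quartile scaling) and 3 lower. Their log2 fold changes ran from 0.65 for PPAT, the first enzyme of the route, to -0.57 for ADSL.

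Of 7 tested genes of the methionine cycle and transsulfuration, 3 were higher and 3 lower. MTRR, which reactivates methionine synthase, rose 1.63-fold, and MAT2A, which makes the methyl donor S-adenosylmethionine, fell from 213 ± 5.85 to 80.3 ± 4.82 FPKM (log2 fold change -1.40). Upper-quartile scaling gave 2 higher and 5 lower. Of 13 genes for the synthesis of other non-essential amino acids, 7 were higher and 4 lower, turning to 4 and 7 with upper-quartile scaling. GOT1, the cytosolic aspartate aminotransferase, rose 4.96-fold (to 79.3 ± 2.22 FPKM), whereas the proline synthesis gene PYCRL (PYCR3) fell 3.47-fold, and both kept direction and call in every alternative that tested them (PYCRL did not reach a mean of 5 FPKM). Among 5 tested genes of amino acid breakdown, 1 rose and 3 fell. The 3 that fell (SDSL, SRR and ASRGL1, chosen for naming after their values were seen) were scarce with YM155, at a mean under 1 FPKM, and passed the filter through the DMSO libraries. With a mean of at least 5 FPKM, 0 genes of the list were lower. ASRGL1, an asparaginase, fell 8.54-fold, from 5.26 ± 0.270 to 0.616 ± 0.210 FPKM (log2 fold change -1.96), and GCAT, of threonine breakdown, rose 1.66-fold.

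Of 4 glycolytic genes around 3-phosphoglycerate, the starting point of serine synthesis, PGAM1 fell 1.45-fold, GAPDH was 1.12-fold higher (log2 fold change 0.17, adjusted p = 0.011 by limma), and PGK1 and ENO1 did not pass (log2 fold changes -0.044 and 0.055). The change of GAPDH turned to -0.18 with upper-quartile and -0.16 with common-sum scaling, where it was called lower (adjusted p = 0.0095 and 0.0016 by limma). With quantile normalization it was 0.065 and did not pass. GAPDH also lost its call with no filter (adjusted p = 0.053 by limma) and at a threshold of 0.01. PGK1 and ENO1 were called lower with these 3 scalings, so of the 4 only PGAM1 kept its direction and call there. The cytosolic tRNA synthetase genes for the same amino acids all rose. GARS, for glycine, rose 6.21-fold, SARS, for serine, 3.71-fold, CARS, for cysteine, 3.56-fold, and NARS, for asparagine, 1.79-fold. All 7 tested plasma membrane carriers of serine, glycine, asparagine and cystine rose, from SLC38A1 (log2 fold change 1.03) to SLC3A2, a subunit of cystine and other exchangers (3.66). Of these, SLC6A9 (0.883 ± 0.211 FPKM in DMSO, 14.8 ± 0.369 FPKM in YM155 libraries) passed the filter through the YM155 libraries. Of the 8 carriers listed, SLC7A10 was too scarce to test, at a mean of 0.859 FPKM with DMSO and 0.584 FPKM with YM155. SLC6A9 and SLC7A10 were named after their values were seen. The synthetase and carrier lists kept their counts with upper-quartile, common-sum, median-of-ratios and quantile scaling. Of 14 regulators 10 were higher and 2 lower (4 lower with upper-quartile scaling). TRIB3, a pseudokinase that is itself an ATF4 target, had the largest log2 fold change (4.603), and EIF2AK4, the kinase GCN2 that senses uncharged tRNA, the lowest (-1.09; from 6.84 ± 0.248 to 2.69 ± 0.229 FPKM). ATF4 mRNA, named after its values were seen, rose 2.06-fold, from 360.4 ± 11.4 to 744 ± 17.5 FPKM.

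**Figure D4:**
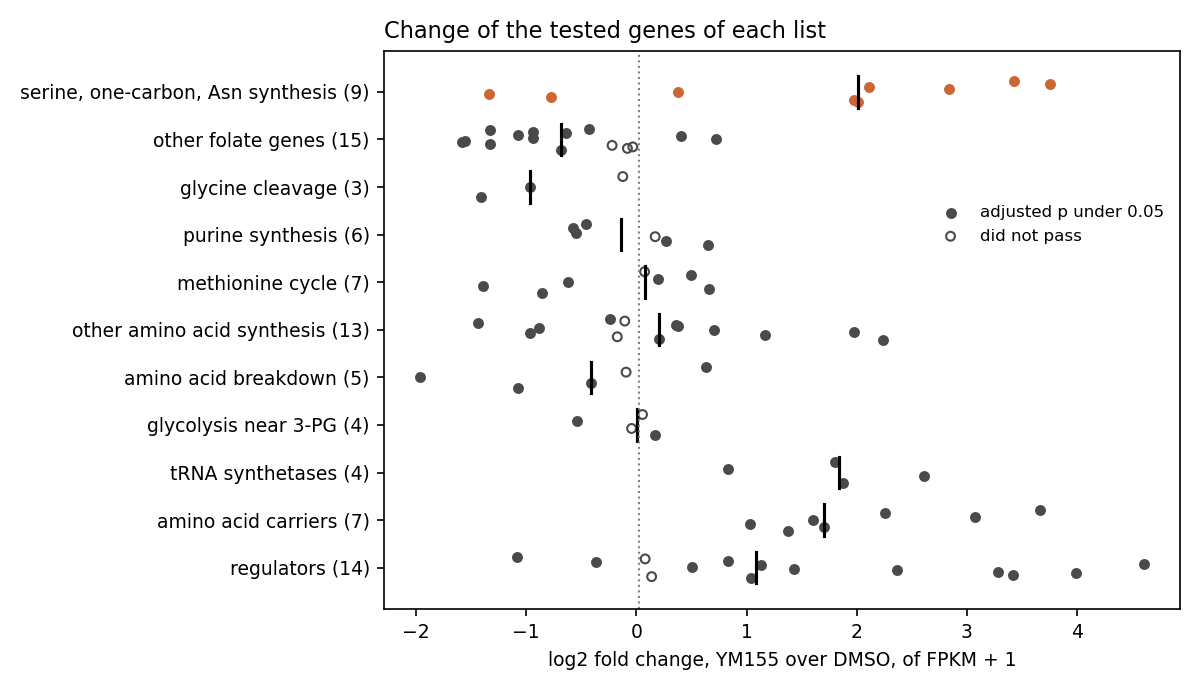
Log2 fold change of FPKM + 1 (horizontal axis) for each of the 9 tested enzymes (orange) and of the neighbouring lists (grey), with the number tested in parentheses; bars are list medians, the dotted line is the median of all tested genes (0.024), and open points did not pass. The medians of the tRNA synthetases (1.84) and carriers (1.70) lie near that of the 9 tested enzymes (2.01), and those of folate (-0.69) and glycine cleavage genes (-0.97) lie on the other side of 0.

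Likeness to ASNS and to PHGDH was measured as the Euclidean distance between profiles of log2(FPKM + 1) over the 6 libraries, each taken relative to the DMSO mean of the gene. With 2 treatments it reflects mainly the size of the change. The 5 tested genes nearest to ASNS were GPCPD1 (distance 0.114), MICALL1 (0.127), NPC1 (0.168), ERN1 (0.189) and RNF19B (0.212), with log2 fold changes of 3.65 to 3.83 and ratios of means of 13.6 to 22.9. The 5 nearest to PHGDH were PFDN2 (0.0656), MLK7-AS1 (0.0779), SLC2A1 (0.0833), MBD6 (0.0861) and PLEKHM1 (0.0877), with log2 fold changes of 1.99 to 2.02. MLK7-AS1, an antisense gene, averaged 0.227 FPKM with DMSO and 3.899 FPKM with YM155, so it passed the filter through the YM155 libraries. Its ratio of means was 17.2 against 4.21 for PHGDH, and the like log2 values come from the 1 FPKM added. None of these 10 genes belongs to the enzymes or to the neighbouring lists.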

How the data were processed

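Messenger RNA was sequenced in 6 libraries of HT29 cells (3 DMSO, 3 YM155, 24 h), and groups and replicate numbers were taken from the labels. Per the labels' protocols, RNA was purified on columns and a strand-preserving mRNA library kit was used. The authors deposited 1 table of FPKM values per library, per the file headers. The submitters' processing notes list build hg19 and, among the software, Cufflinks 2.2.1 with Cuffdiff, SAMtools 1.2, TopHat2 2.1.1 and Bowtie2 2.3.5.1. How these were set, which annotation was taken, how libraries were scaled and whether strand was used is not given in the sources used here. FPKM divides out depth, so no count model was used.

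Values were taken as log2(FPKM + 1). Genes with at least 1 FPKM in at least 3 of 6 libraries were fitted with limma 3.58.1 in R 4.3.3 (eBayes with trend, no block, two-sided) and p-values were adjusted by Benjamini-Hochberg across the 12035 genes tested. Calls were made under an adjusted p of 0.05. The fit was tested on simulated data. Folds are ratios of mean FPKM, and intervals are 95%. Pair ratios had 0.1 added to both values and were tested with scipy 1.17.1. Depth was estimated from the peak of 1-read values in single-transcript genes of GENCODE release 29, with an assumed fragment length of 200 bases. Older symbols were matched through RefSeq (GRCh38.p14).

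The members and lists were chosen with earlier results of these data known. The rule for named genes took all members, the second gene of each pair, of each list the tested genes with the largest and smallest log2 fold change, every tested member of lists of up to 4 genes, and the 5 genes nearest to ASNS and PHGDH. The folate gene with the smallest log2 fold change is not reported here. The alternatives changed the pseudocount (to 0.5 or 0.1), the filter (removed, or at a mean of 5 FPKM) and the scaling, and added others: upper-quartile, common-sum, median-of-ratios and quantile scaling, no abundance trend, a replicate block, a threshold of 0.01 and leaving out each library, with the tested genes kept for scalings and left-out libraries. Genes with overlapping neighbours among the genes measured (SHMT1, SHMT2, MTHFD2, ALDH1L2) or named pseudogenes (PSAT1, PSPH, SHMT1, MTHFD2, ASNS) have uncertain levels. MTHFD1L, ASNS and CTH also overlap other GENCODE genes, which have no values here, so their levels carry a like uncertainty.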

Additional observations from a re-analysis of the deposited data

How the results depend on the processing

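Of the 9 tested enzymes, 8 kept their direction and call in every alternative run, and SHMT2 lost its call with upper-quartile, common-sum and quantile scaling, turning to a log2 fold change of -0.07 with the last. The range over all alternatives was 3.33 to 3.80 for ASNS, 3.12 to 3.76 for CTH, 2.38 to 2.89 for MTHFD2, 1.78 to 2.196 for MTHFD1L, 1.66 to 2.07 for PHGDH, 1.57 to 2.05 for PSAT1, -1.09 to -0.69 for PSPH and -1.64 to -1.30 for SHMT1. With any 1 library left out, 7 enzymes were higher and 2 lower. The tested genes of the neighbouring lists then numbered 37 to 39 higher and 28 to 30 lower, and all genes 5084 to 5252 higher and 4768 to 4952 lower. A mean of at least 5 FPKM, which tests fewer genes, gave 2922 lower genes in all and 18 in the neighbouring lists. GAPDH turned to -0.18 and -0.16 with upper-quartile and common-sum scaling, where it was called lower. It lost its call with quantile normalization, no filter and a threshold of 0.01. ENO1, which did not pass on the deposited scale, turned to -0.29, -0.27 and -0.40 with upper-quartile, common-sum and quantile scaling, where it was called lower. MTHFD2L, which did not pass in any alternative, turned to 0.235 with quantile normalization, and to 0.001 without DMSO replicate 1 and 0.012 without YM155 replicate 3. The cause was not tested.

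The log2 difference of the ALDH1L2 to ALDH1L1 ratio was 0.031, with both genes scarce. It was 1.12 with no pseudocount (exact permutation p = 0.4) and -0.016 with a pseudocount of 1, and ran from -0.16 to 0.39 with 1 library left out. Replicate numbers are shared between the treatments, but same-numbered libraries did not deviate together (r of -0.071, -0.148 and -0.125 across genes), and no library correlated best with its own number. With the replicate block 5147 genes were higher and 4861 lower, 7 enzymes were higher and 2 lower, and 37 genes of the neighbouring lists were higher and 29 lower. The ratio of CTH to CBS could not be computed without a pseudocount, since CBS is listed at 0 in 2 libraries. At an estimated 15.3 to 27.3 M effective reads, ALDH1L2 rests on too few reads for a test.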
